A study of Mus musculus with 18 samples.

Results

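Tmem176a and Tmem176b are a pair of neighbouring mouse genes, and these are their levels in naive CD4 T cells of 6 genotypes that differ in microRNAs of the miR-23 clusters. The pair is 2 of the 23953 gene rows of the expression table, and both genes passed the filter on low values, which kept 11099 genes. Both were chosen because their levels were high in cluster Tg and miR-27 Tg cells, so the values of these genotypes against the others are described and not tested. The cells were sorted as CD4+CD25-CD62Lhi naive T cells from C57BL/6 mice, and RNA was sequenced from 3 libraries of each genotype, 18 in all. Cluster Tg mice over-expressed the whole cluster of miR-23, miR-27 and miR-24 in T cells, and miR-27 Tg, miR-24 Tg and miR-23 Tg mice over-expressed a single one of its members there. DKO mice lacked both clusters, a and b, in T cells, and WT mice served as the control of every other genotype. The promoter that drove the transgenes, the Cre line of the deletion, any treatment and the age of the mice are not stated in the labels used here. The labels do not say that each library came from a separate mouse, so the spread between libraries may be partly technical.

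Tmem176a and Tmem176b encode small membrane-spanning proteins that resemble the MS4A family, a group of membrane proteins of leukocytes that includes the B cell antigen CD20. In mice both are best known from dendritic cells, where Tmem176b is tied to the immature state, and from lymphocytes of the type 17 programme. Tmem176b has been described as an ion channel of intracellular membranes that restrains the inflammasome in mouse myeloid cells. A microRNA pairs with messenger RNAs mainly through its seed, bases 2 to 8, and usually lowers their amount.

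The mature sequences below, from RefSeq on GRCm38.p6, show what the transgenes share and where they differ, with the seed in capitals. All are given 5′ to 3′ from the plus strand. The first 3 lie on chromosome 8 in the order of the a cluster, and the last lies on chromosome 13 in the b cluster.
mmu-miR-23a-3p (chr8:84208563-84208583): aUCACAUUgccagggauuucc
mmu-miR-27a-3p (chr8:84208727-84208747): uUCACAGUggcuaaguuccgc
mmu-miR-24-3p (chr8:84208875-84208896): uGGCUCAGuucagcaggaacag
mmu-miR-27b-3p (chr13:63300760-63300780): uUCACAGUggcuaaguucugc
The miR-27 seed is the same in its a and b forms, and it differs from the seeds of miR-23 and miR-24. The b form of miR-23 is named only.

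The genes of the pair lie head to head on chromosome 6, with Tmem176b on the minus strand and Tmem176a on the plus strand. The window from 250 bases before to 50 bases after a RefSeq start of Tmem176a is shown because it holds an annotated start of each gene. RefSeq lists 2 starts of Tmem176a and 3 of Tmem176b, and the other 3 of these starts lie outside it. It is the plus strand of GRCm38.p6, chr6:48841233-48841532, and the capitals mark the 108 bases between the starts inside it.
Tmem176a window: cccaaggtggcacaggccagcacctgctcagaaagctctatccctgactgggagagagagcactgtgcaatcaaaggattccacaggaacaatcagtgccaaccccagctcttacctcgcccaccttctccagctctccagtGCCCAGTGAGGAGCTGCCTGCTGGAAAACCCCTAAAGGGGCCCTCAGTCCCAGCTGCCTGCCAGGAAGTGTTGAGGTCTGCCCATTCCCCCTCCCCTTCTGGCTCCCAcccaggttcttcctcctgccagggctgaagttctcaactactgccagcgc
The windows around these starts of the 2 genes share 208 bases. The shown window has a GC content of 59.7%. On both strands it held 2 matches of AGGAAG, a motif that contains the core of ETS factor sites, at positions 205 and 259 of the window, and 35.4% of 32851 such windows in the RefSeq table hold at least 1. It held no match of CCAAT (found in 37.4% of all windows) or of AGGTCA, a core motif of nuclear receptors (16.3%). It likewise held no match of the E-box letters CACGTG (7.2%), of TATAAA (13.6%) or of the runt core TGTGGT (16.8%). A match is a string of letters and no measured binding.

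Both genes were abundant in cluster Tg and miR-27 Tg cells, at an intermediate level in miR-24 Tg cells, and low in miR-23 Tg, DKO and WT cells. Levels are RPKM, a measure of reads per length and per library size, as the authors deposited them. Tmem176a stood at 67.5, 33.6 and 33.8 RPKM in the cluster Tg libraries, at 30.1, 31.6 and 64.3 RPKM in miR-27 Tg, at 10.3, 4.51 and 5.31 RPKM in miR-24 Tg, at 1.29, 1.72 and 1.78 RPKM in miR-23 Tg, at 2.01, 1.53 and 2.09 RPKM in DKO and at 1.74, 2.46 and 2.32 RPKM in WT. The lowest cluster Tg and miR-27 Tg libraries lay far above the highest miR-24 Tg library, and every miR-24 Tg library lay above every WT library. Tmem176b stood at 103.5, 52.7 and 56.4 RPKM in cluster Tg, at 50.02, 58.1 and 139.3 RPKM in miR-27 Tg, at 14.8, 9.58 and 11.4 RPKM in miR-24 Tg, at 2.67, 3.30 and 3.23 RPKM in miR-23 Tg, at 4.79, 2.86 and 4.98 RPKM in DKO and at 3.60, 5.34 and 2.47 RPKM in WT. It showed the same 3 tiers with no overlap between them. The share of all tested genes whose libraries separate in this way was not counted. In bulk RNA, more cells that express a gene and more RNA per cell cannot be told apart.

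**Figure D1:**
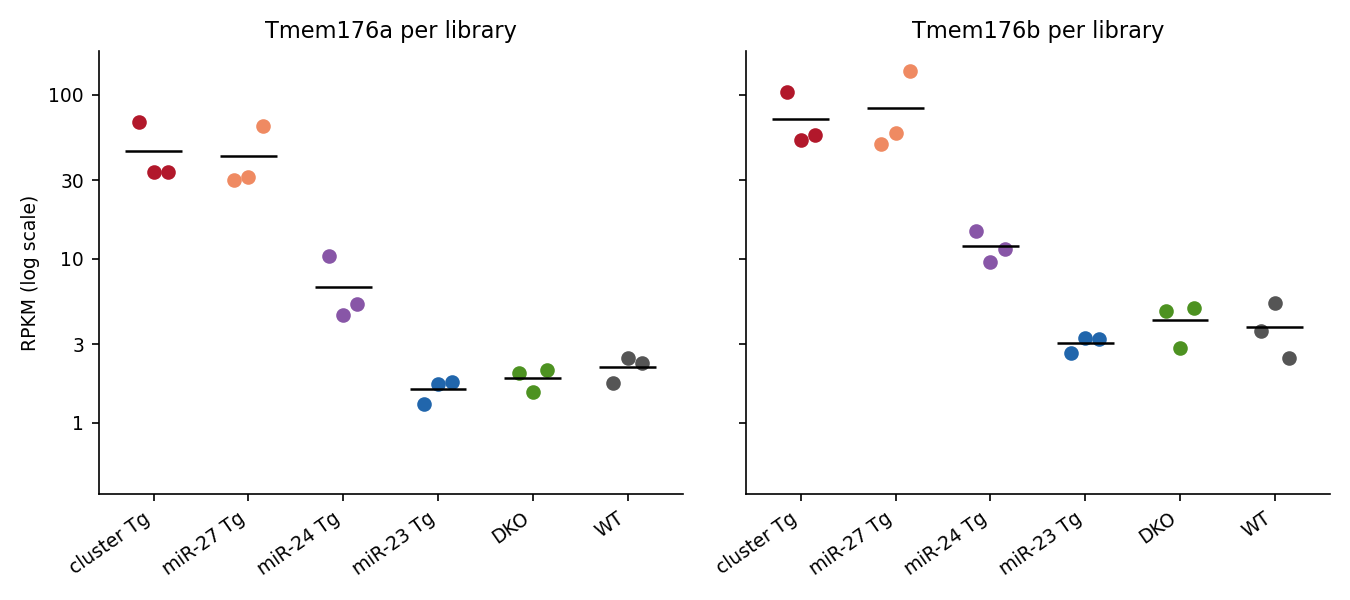
RPKM of Tmem176a and Tmem176b in each of the 18 libraries by genotype, on a log axis, with a point per library and a bar at the genotype mean. Cluster Tg and miR-27 Tg points of Tmem176b lie between 50.02 and 139.3 RPKM, miR-24 Tg points between 9.58 and 14.8 RPKM, and the remaining points at 5.34 RPKM or less.

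By genotype mean, Tmem176a ran from cluster Tg (44.97 ± 19.5 RPKM, SD, n = 3 here and below) and miR-27 Tg (41.99 ± 19.3 RPKM) through miR-24 Tg (6.70 ± 3.13 RPKM) to WT (2.17 ± 0.380 RPKM), DKO (1.88 ± 0.301 RPKM) and miR-23 Tg (1.59 ± 0.265 RPKM). Of the neighbours in this order, cluster Tg and miR-27 Tg overlapped, as did WT with DKO and DKO with miR-23 Tg. Tmem176b ran from miR-27 Tg (82.5 ± 49.4 RPKM) and cluster Tg (70.8 ± 28.3 RPKM) through miR-24 Tg (11.9 ± 2.66 RPKM) to DKO (4.21 ± 1.17 RPKM), WT (3.80 ± 1.44 RPKM) and miR-23 Tg (3.06 ± 0.345 RPKM). Its overlaps were cluster Tg with miR-27 Tg, DKO with WT, and WT with miR-23 Tg. As ratios of mean RPKM to the WT mean, Tmem176a was at 20.7 in cluster Tg, 19.3 in miR-27 Tg, 3.08 in miR-24 Tg, 0.734 in miR-23 Tg and 0.864 in DKO. Tmem176b was at 18.6, 21.7, 3.13, 0.805 and 1.11 in the same order.

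Ranked within each library among the tested genes, the pair stood low among expressed genes in WT and high in cluster Tg and miR-27 Tg. Tmem176b stood between percentiles 82.2 and 93.0 of RPKM in cluster Tg and miR-27 Tg libraries, and between 16.5 and 26.4 in WT libraries. Tmem176a stood between 69.8 and 87.8 in cluster Tg and miR-27 Tg libraries, and between 12 and 15.8 in WT libraries.

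Fold changes were fitted with limma on log2(RPKM + 1), a scale that understates the change of low genes, with p-values adjusted by Benjamini-Hochberg over all 11099 genes. The 5 comparisons with WT share its 3 libraries. On this scale Tmem176a was higher by 3.79 (SE 0.32) in cluster Tg than in WT and by 3.68 in miR-27 Tg than in WT. Tmem176b was higher by 3.88 (SE 0.36) and 4.01 in the same comparisons. These values chose the pair and carry no test. In cluster Tg against WT the genes ranked 54 and 51, counted from the highest rise among all tested genes, and in miR-27 Tg against WT they ranked 41 and 32. Of all tested genes 8.48% were called in cluster Tg against WT and 8.95% in miR-27 Tg against WT, a call being an adjusted p under 0.05.

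The choice did not use the miR-24 Tg libraries, but it used the 3 WT libraries, so no test against WT is independent of it. In miR-24 Tg cells Tmem176b rose by 1.45 over WT (SE 0.36, 95% interval 0.68 to 2.22, limma adjusted p = 0.0393). Tmem176a was higher by 1.21 (SE 0.32, 95% interval 0.52 to 1.91) and missed the threshold (limma adjusted p = 0.0562). Thus 1 of the 2 genes was called, where 3.59% of all tested genes were called in this comparison. Counted from the highest rise, Tmem176b ranked 176 and Tmem176a 221 of 11099. The Tmem176b call was lost when any 1 of the 6 libraries was left out, with limma adjusted p between 0.0504 and 0.167, and without the filter on low values (limma adjusted p = 0.0566). The Tmem176a value passed with a pseudocount of 0.1 in place of 1 (1.50, limma adjusted p = 0.0286). In miR-24 Tg cells the pair still stood lower than in cluster Tg cells, by 2.57 for Tmem176a and 2.43 for Tmem176b on the same scale, a difference given as a description.

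In miR-23 Tg and DKO cells neither gene was called against WT. The miR-23 Tg difference was -0.29 for Tmem176a (95% interval -0.98 to 0.41, limma adjusted p = 0.997) and -0.20 for Tmem176b (95% interval -0.97 to 0.57, limma adjusted p = 1), where 0.045% of all tested genes were called. The DKO difference was -0.14 for Tmem176a (95% interval -0.84 to 0.56) and 0.13 for Tmem176b (95% interval -0.64 to 0.90), both at a limma adjusted p of 1. In DKO against WT limma called 0 genes in all (0%), 81 genes had an unadjusted p under 0.05, and a limma fit to these 2 genotypes alone called 4.

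Between miR-27 Tg and cluster Tg the pair was not called. The pair was chosen for a rise in both genotypes, which favours likeness between them, so no conclusion is drawn from this test. The difference of miR-27 Tg minus cluster Tg was -0.11 for Tmem176a (95% interval -0.80 to 0.59, limma adjusted p = 0.841) and 0.13 for Tmem176b (95% interval -0.64 to 0.90, limma adjusted p = 0.823), where 3.79% of all tested genes were called. Both signs turn on single libraries. Without miR-27 Tg replicate 3 the differences were -0.45 and -0.32, and without cluster Tg replicate 1 they were 0.22 and 0.44, for Tmem176a and Tmem176b in this order.

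The hairpin rows of the cluster were read as a check of the genotypes. In each transgenic the row of its own microRNA was far above WT, while the DKO rows were less clear. Mir27a stood at 172309, 67414 and 35501 RPKM in cluster Tg libraries, at 216755, 234933 and 27981 RPKM in miR-27 Tg libraries, and at 130.8, 193.7 and 95.6 RPKM in WT libraries. The library with the highest pair in cluster Tg, replicate 1, also had the highest Mir27a of its genotype, while the library with the highest pair in miR-27 Tg, replicate 3, had the lowest. RPKM of so short a row depends heavily on the length used and is set only against the same row. In DKO libraries Mir27a stood at 36.3, 39.5 and 0 RPKM, below every WT library, and Mir24-2 was listed at 0 in all 3. Mir23a stood at 0, 0 and 76.1 RPKM in DKO libraries and at 279.5, 82.8 and 0 RPKM in WT libraries, which overlap, so this row does not show the deletion. In miR-23 Tg libraries Mir23a stood between 64024 and 74236 RPKM. In miR-24 Tg libraries, where the pair was intermediate, Mir27a stood at 238.5, 89.3 and 587.8 RPKM and Mir24-2 between 13888 and 49237 RPKM. Of these libraries replicate 1 had the highest pair and replicate 3 the highest Mir27a. In miR-23 Tg libraries, where the pair was low, Mir27a stood at 235.5, 170.1 and 155.2 RPKM.

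The library values of both genes moved together within genotypes as well as between them. RPKM is per length, so both genes can be set against each other within a library. Tmem176b exceeded Tmem176a in all 18 libraries, with a log2 ratio of their RPKM between 0.09 and 1.26. By genotype the log2 ratio was 0.67 ± 0.06 in cluster Tg, 0.91 ± 0.19 in miR-27 Tg, 0.90 ± 0.33 in miR-24 Tg, 0.95 ± 0.09 in miR-23 Tg, 1.14 ± 0.20 in DKO and 0.75 ± 0.57 in WT. WT replicate 3, at 0.09, set the wide WT spread, and without it the WT mean was 1.08. After the genotype mean was subtracted from log2(RPKM + 1), the deviations of the 2 genes had a Pearson r of 0.86 over 18 libraries, and they lay on the same side in 17 of them. Both values of a point come from 1 library, so they share its cells, depth and preparation. The third replicates of miR-27 Tg and of DKO stood apart from the rest over all genes, and without them the r was 0.78 over 16 libraries.

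**Figure D2:**
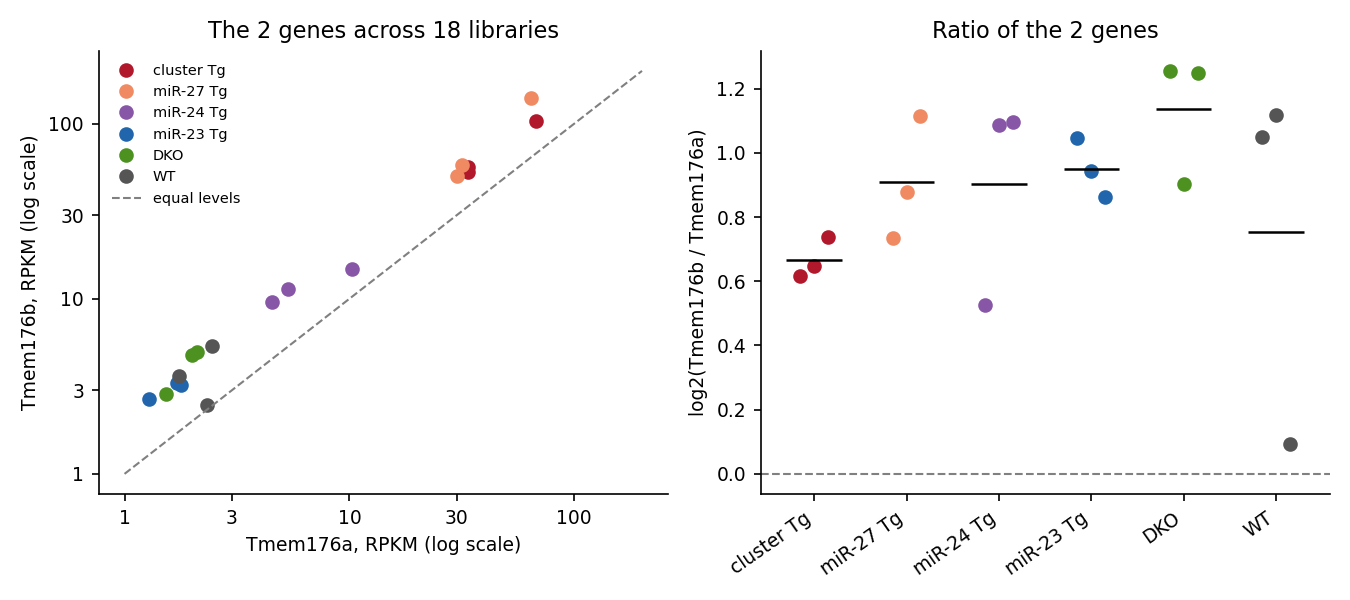
Left, Tmem176b against Tmem176a in RPKM, on log axes, with a point per library coloured by genotype. Right, the log2 ratio of Tmem176b to Tmem176a per library with the genotype mean; all 18 values lie above 0, the lowest being WT replicate 3 at 0.09.

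How far reads can be assigned to 1 gene of the pair bears on this. In the basic GENCODE M21 models the exons cover 1661 bases of Tmem176a and 2142 bases of Tmem176b and share 0 bases, while in all models they cover 3810 and 2371 bases and share 81, which is 2.1% of the Tmem176a and 3.4% of the Tmem176b exon bases. The sources used here do not say whether reads were counted by strand, so reads from those bases cannot be told apart.

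The genes beside the pair had smaller fold changes in cluster Tg and miR-27 Tg than the pair itself. The pair was chosen for its rise in these genotypes, which favours this difference, so no conclusion is drawn from it. GENCODE M21 puts a row of Gimap genes, which encode GTPases of lymphocyte survival, on the Tmem176b side, and Aoc1, 1600015I10Rik, Doxl2, Svs1, Gpnmb and Malsu1 on the other. Of the 6 protein-coding genes on each side, 7 passed the filter. Gm28053 was not analysed here, and the 4 genes next to Tmem176a did not pass the filter. The nearest Gimap gene, Gimap3, stood between 429.6 and 531.1 RPKM in cluster Tg libraries, between 573.3 and 1081 RPKM in miR-27 Tg libraries and between 509.2 and 573.7 RPKM in WT libraries. Limma called 0 of the 7 in cluster Tg against WT, with a median log2 fold change of -0.02, where 8.48% of all tested genes were called.

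In miR-27 Tg against WT limma called 1 of the 7 neighbours, where 8.95% of all tested genes were called, a share that 1 of 7 lies near. Gpnmb, a membrane glycoprotein of macrophages, stood between 2.75 and 4.37 RPKM in miR-27 Tg and between 0.726 and 0.858 RPKM in WT (log2 fold change 1.40, limma adjusted p = 3.8e-05, and 0.0564 in a fit to these 2 genotypes alone). In miR-24 Tg against WT Gimap5 was the only neighbour called, where 3.59% of all tested genes were called. It stood between 53.8 and 63.9 RPKM in miR-24 Tg and between 41.8 and 44.6 RPKM in WT (log2 fold change 0.45, limma adjusted p = 0.0206). That call was lost in 5 of the 6 fits that left out a library, with limma adjusted p up to 0.115. No neighbour was called in miR-23 Tg or DKO against WT.

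**Figure D3:**
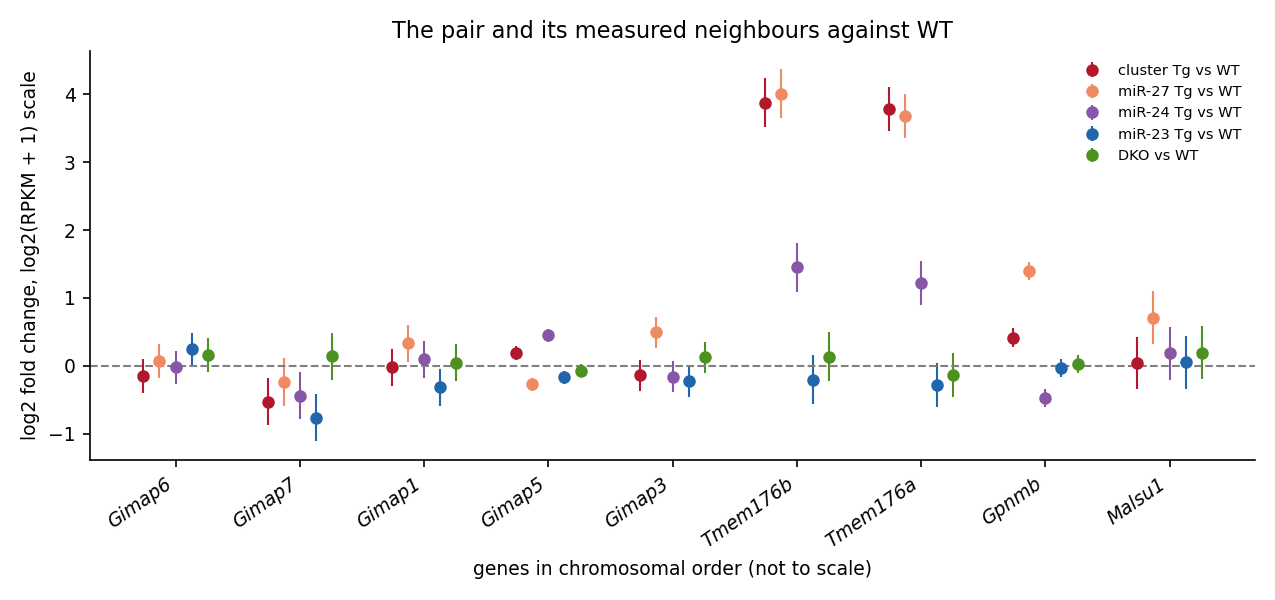
Log2 fold change against WT on the log2(RPKM + 1) scale for the pair and its 7 tested neighbours in chromosomal order, for 5 genotypes, with bars of 1 SE. Both genes of the pair stand near 4 in cluster Tg and miR-27 Tg, the genotypes whose rise chose them, and between 1 and 1.5 in miR-24 Tg. The highest neighbour value is 1.40, for Gpnmb in miR-27 Tg.

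The related MS4A family, a list chosen with earlier results of these data known, was higher in part. Of 16 listed genes 15 were in the table, 7 passed the filter and 3 were listed at 0 in every library. In miR-27 Tg against WT limma called 6 of the 7 higher, with a median log2 fold change of 0.75, against 0.03 over all tested genes and 5.77% of them called higher. In cluster Tg against WT it called 2 of 7 higher, with a median of 0.63, against 0 over all genes and 5.63% called higher. In miR-24 Tg against WT it called 1 of 7 higher, with a median of 0.26 and 2.32% of all genes called higher, and in miR-23 Tg and DKO it called none. When a library was left out, the count was 2 to 5 in miR-27 Tg, 1 to 2 in cluster Tg and 0 to 1 in miR-24 Tg.

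Single members of the family varied in size and direction of change. Ms4a4d was lower than in WT in cluster Tg (log2 fold change -0.33), miR-27 Tg (-0.47) and miR-24 Tg (-0.24), and was called in none. Ms4a6d was lower in cluster Tg (-0.08) and miR-24 Tg (-0.49) without a call, and was called higher in miR-27 Tg (0.75). Ms4a4c, a family member found in T cells, averaged 46.7 ± 5.39 RPKM in cluster Tg, 34.6 ± 6.98 RPKM in miR-27 Tg, 21.2 ± 8.32 RPKM in miR-24 Tg and 13.3 ± 0.90 RPKM in WT. Its calls were in cluster Tg (log2 fold change 1.74, limma adjusted p = 0.00219) and in miR-27 Tg (1.30, limma adjusted p = 0.0145), with none in miR-24 Tg. Ms4a6c was called in all 3 genotypes, by 0.63 in cluster Tg, 0.56 in miR-27 Tg and 0.58 in miR-24 Tg, each lost in at least 3 of 6 fits that left out a library. Its largest difference from WT was in miR-23 Tg, where the pair was not higher: Ms4a6c averaged 46.4 ± 4.29 RPKM in miR-23 Tg and 25.7 ± 2.28 RPKM in WT (log2 fold change 0.83), and was not called (limma adjusted p = 0.0792). Ms4a1, which encodes the B cell antigen CD20, belonged to the 6 called in miR-27 Tg, and the B cell markers that moved with it are given further on. Ms4a1 had the highest fold change of the family in miR-27 Tg, at 2.44, below both genes of the pair. In miR-24 Tg it stood at 1.84 and was not called (limma adjusted p = 0.0542), above both genes of the pair.

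Genes of the type 17 programme, the T helper and innate lymphocyte state in which the pair is known from mice, were called in part. Of 15 listed genes 8 passed the filter. Limma called 3 higher in cluster Tg against WT (Rora, Il21 and Maf), 2 in miR-27 Tg and 2 in miR-24 Tg (Il21 and Maf in both), and none in miR-23 Tg or DKO. Of all tested genes 5.63% were called higher in cluster Tg, 5.77% in miR-27 Tg and 2.32% in miR-24 Tg. The median log2 fold changes of the 8 were 0.94 in cluster Tg, 0.41 in miR-27 Tg, 0.68 in miR-24 Tg, 0.13 in miR-23 Tg and -0.05 in DKO, where those of all tested genes were at most 0.03. When a library was left out, the count was 2 to 4 in cluster Tg, 0 to 3 in miR-27 Tg and 0 to 3 in miR-24 Tg. Maf, a transcription factor of interleukin-producing T cells, averaged 13.6 ± 0.837 RPKM in cluster Tg, 10.4 ± 4.11 RPKM in miR-27 Tg, 10.7 ± 4.31 RPKM in miR-24 Tg and 3.59 ± 0.237 RPKM in WT.

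The interleukin gene Il21 averaged 1.97 ± 0.133 RPKM in cluster Tg, 0.754 ± 0.433 RPKM in miR-27 Tg, 0.911 ± 0.128 RPKM in miR-24 Tg and 0.179 ± 0.101 RPKM in WT. Of these calls, those of Maf and Il21 in cluster Tg held in all 6 fits that left out a library. In miR-27 Tg and miR-24 Tg the calls of both genes were lost in 4 or 5 of the 6 fits, with limma adjusted p up to 0.189, and that of Rora in cluster Tg was lost in 1.

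By likeness over the 18 libraries, the genes nearest to the mean log2(RPKM + 1) of the pair were H1f0 (Pearson r 0.976), Pck2 (0.970), Dleu2 (0.968), Axl (0.967), Slc43a1 (0.961), Gstt3, Il10ra and Pdgfb (each 0.960), Angptl2 (0.954) and Skap2 (0.953). Of 11097 other genes 78 had an r above 0.9. The points share their libraries and their 6 genotypes, and any gene that is high in the same 2 genotypes reaches a high r, so the values are a description. After the genotype means were subtracted, the r of these 10 genes with the pair mean fell between 0.254 for Angptl2 and 0.796 for H1f0. Of the other genes, 45 had a within-genotype r with the pair mean above 0.796. The r of 0.86 between the genes of the pair is gene against gene, so it is not the same measure. Ranked by Spearman's rho, 3 of the 10 stayed among the first 10, and 4 did without both libraries that stood apart.

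H1f0, a linker histone of slowly dividing cells, averaged 39.99 RPKM in cluster Tg, 36.5 RPKM in miR-27 Tg, 15.7 RPKM in miR-24 Tg, 6.49 RPKM in miR-23 Tg, 6.15 RPKM in DKO and 7.05 RPKM in WT. Axl, a receptor tyrosine kinase that binds Gas6, averaged 10.3, 5.99, 2.00, 0.677, 0.682 and 0.771 RPKM in the same order. Il10ra, a chain of the interleukin-10 receptor, averaged 32.9, 32.9, 21.7, 9.03, 9.56 and 11.6 RPKM. These 3 genes showed the same tiers as the pair, at smaller ratios to WT.

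**Figure D4:**
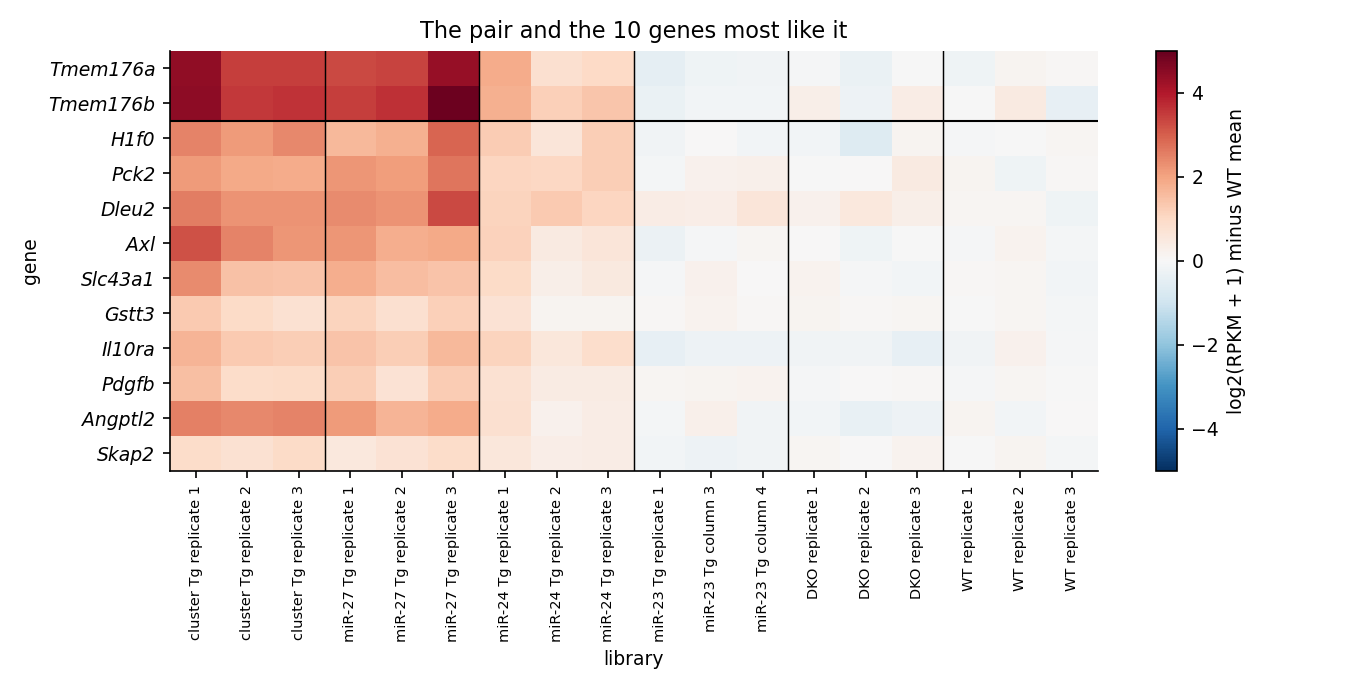
Log2(RPKM + 1) minus the WT mean for the pair and the 10 genes most like it, with a row per gene and a column per library grouped by genotype, on a colour scale. Means of each gene were highest in cluster Tg and miR-27 Tg and next in miR-24 Tg. Single libraries overlap: miR-24 Tg with miR-27 Tg for Pdgfb and Skap2, and miR-24 Tg with miR-23 Tg for Gstt3 and Angptl2.

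Because the pair is known from dendritic cells, markers of other cells were read beside it. The 14 naive CD4 T cell markers were abundant everywhere, the lowest single value in any library being 97.4 RPKM. Of the 14, limma called 2 higher in cluster Tg, among them S1pr1, a receptor that guides T cells out of lymphoid organs. It called 1, the inhibitory surface receptor Cd5, higher in miR-27 Tg and lower in miR-24 Tg. Of all tested genes 5.63% were called higher in cluster Tg, 5.77% in miR-27 Tg and 2.32% in miR-24 Tg. Those called lower were 2.85%, 3.18% and 1.26% in the same order. When a library was left out, the count called higher in cluster Tg was 0 to 1. The S1pr1 call was lost in 5 of these 6 fits, and those of Cd5 in 1 of 6 in miR-27 Tg and 2 of 6 in miR-24 Tg. Of the 9 dendritic cell markers none passed the filter. Their summed level ran from 0.535 to 1.06 RPKM in cluster Tg, 1.35 to 3.86 RPKM in miR-27 Tg, 0.965 to 7.51 RPKM in miR-24 Tg, 0.298 to 0.667 RPKM in miR-23 Tg, 0.278 to 0.446 RPKM in DKO and 0.113 to 0.374 RPKM in WT. The highest single dendritic marker was 0.417 RPKM in cluster Tg, 1.50 RPKM in miR-27 Tg, 2.42 RPKM in miR-24 Tg and 0.102 RPKM in WT. Siglech, Cd209a and Clec10a were listed at 0 in all WT libraries, and no marker was listed at 0 in all libraries of cluster Tg, miR-27 Tg or miR-24 Tg. Every dendritic sum of cluster Tg, miR-27 Tg and miR-24 Tg lay above every one of WT. The sum was higher in every miR-24 Tg library than in 2 of the 3 cluster Tg libraries, while the pair was lower in all miR-24 Tg libraries. The part of dendritic cells in the levels of the pair was not tested.

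Markers of monocytes and macrophages were called in part. Of 12 listed genes 5 passed the filter, and limma called 2 higher in cluster Tg (Itgam and Ccr2), 3 in miR-27 Tg (with Lyz2) and 1 in miR-24 Tg (Fcgr3), where 5.63%, 5.77% and 2.32% of all tested genes were called higher in the same order. Their sums were 25.7 to 42.2 RPKM in cluster Tg, 36.0 to 52.3 RPKM in miR-27 Tg, 16.7 to 37.2 RPKM in miR-24 Tg, 12.5 to 14.6 RPKM in miR-23 Tg, 12.8 to 20.9 RPKM in DKO and 11.1 to 21.2 RPKM in WT. The Ccr2 calls were lost in 5 of 6 fits that left out a library in cluster Tg and in 4 of 6 in miR-27 Tg, that of Fcgr3 in 5 of 6, and those of Itgam and Lyz2 in 0. Cd14 was listed at 0 in all WT libraries. Itgam, an integrin chain that some activated lymphocytes also carry, averaged 12.2 ± 3.96 RPKM in cluster Tg, 10.04 ± 5.23 RPKM in miR-27 Tg and 1.84 ± 0.123 RPKM in WT.

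Neutrophil markers were called in miR-27 Tg, and B cell markers in miR-27 Tg and miR-24 Tg. Of 7 neutrophil markers 4 passed the filter, and limma called 2 higher in miR-27 Tg (S100a8 and S100a9), where 5.77% of all tested genes were called higher, and none in the other genotypes. The count in miR-27 Tg was 0 to 3 when a library was left out, the S100a8 call being lost in 3 of 6 such fits. In miR-24 Tg the median log2 fold change of the 4 was 2.55, and limma called 2 at a pseudocount of 0.1 and 3 without both libraries that stood apart. Of all 11099 tested genes these fits called 436 and 1937 in miR-24 Tg. Their sums were 0.0802 to 0.785 RPKM in cluster Tg, 13.6 to 659 RPKM in miR-27 Tg, 3.02 to 124.6 RPKM in miR-24 Tg, 0.225 to 6.27 RPKM in miR-23 Tg, 0.142 to 0.887 RPKM in DKO and 0 to 0.362 RPKM in WT. Ltf and Elane were listed at 0 in all cluster Tg libraries. Of 11 B cell markers 9 passed the filter, and limma called all 9 higher in miR-27 Tg, 5 in miR-24 Tg and none in cluster Tg, miR-23 Tg or DKO. Of all tested genes 2.32% were called higher in miR-24 Tg. When a library was left out, the count was 8 to 9 in miR-27 Tg and 0 to 6 in miR-24 Tg. Without both libraries that stood apart it was 5 in cluster Tg, where that fit called 3225 of 11099 genes. Their sums were 20.5 to 41.7 RPKM in cluster Tg, 31.6 to 151.7 RPKM in miR-27 Tg, 21.2 to 91.5 RPKM in miR-24 Tg, 5.42 to 22.3 RPKM in miR-23 Tg, 5.53 to 7.88 RPKM in DKO and 5.37 to 7.19 RPKM in WT.

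In cluster Tg, miR-27 Tg and miR-24 Tg the library with the highest pair was also the highest of its genotype in several of these lists. In cluster Tg, replicate 1 held the highest pair, the highest dendritic (1.06 RPKM) and monocyte (42.2 RPKM) sums and the lowest neutrophil sum (0.0802 RPKM). Its B cell sum (24.7 RPKM) lay below that of replicate 3 (41.7 RPKM). In miR-27 Tg, replicate 3 held the highest pair, dendritic sum (3.86 RPKM), monocyte sum (52.3 RPKM), neutrophil sum (659 RPKM) and B cell sum (151.7 RPKM). In miR-24 Tg, replicate 1 held the highest pair and the highest dendritic (7.51 RPKM), monocyte (37.2 RPKM), neutrophil (124.6 RPKM) and B cell (91.5 RPKM) sums. The miR-27 Tg library, which stood apart over all genes, also held the highest naive CD4 T cell sum of its genotype (9486 RPKM, against 6478 and 6324 RPKM). Replicate 1 of cluster Tg (5732 RPKM) and of miR-24 Tg (5308 RPKM) held the lowest of theirs. The part of other cells in the levels of the pair was not tested.

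**Figure D5:**
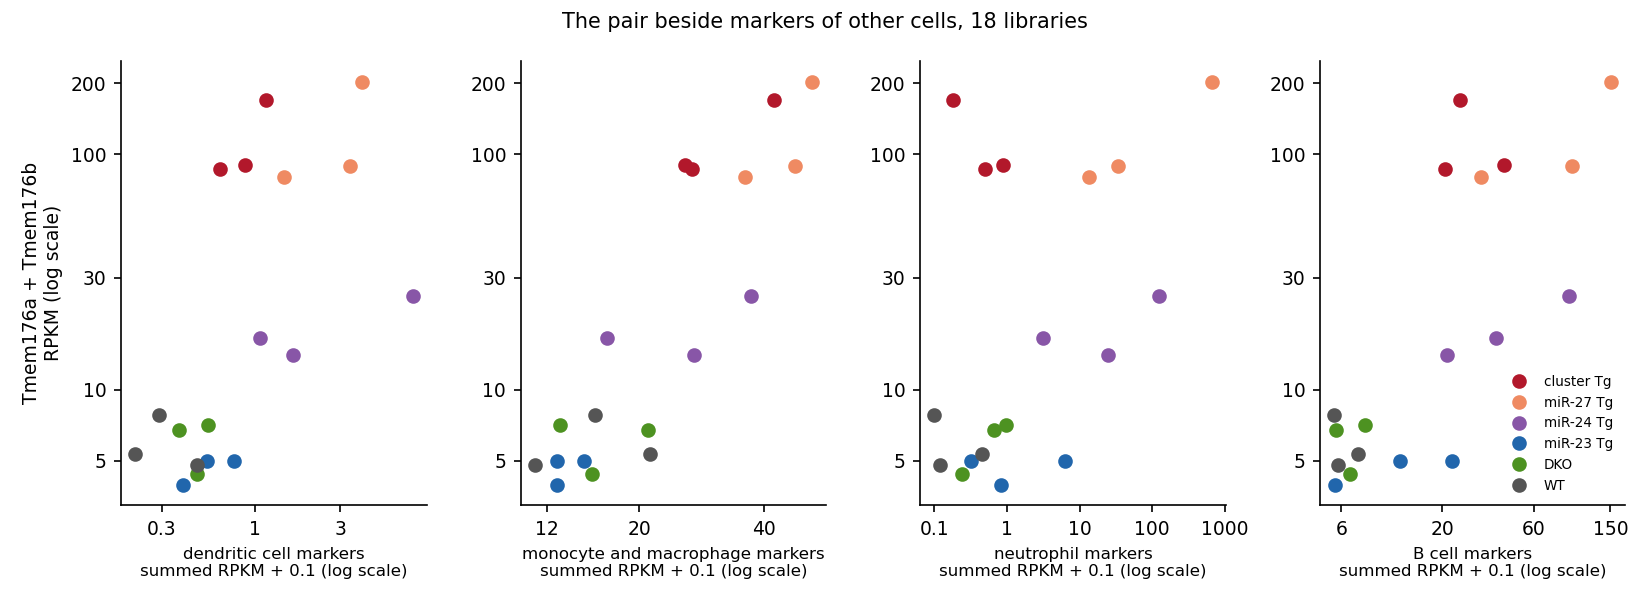
Summed RPKM of Tmem176a and Tmem176b against the summed RPKM plus 0.1 of 4 lists of markers of other cells, on log axes, with a point per library coloured by genotype. Cluster Tg points lie at 86.3 to 171.0 RPKM of the pair at neutrophil sums under 1 RPKM, and miR-24 Tg points lie at 14.1 to 25.1 RPKM at neutrophil sums up to 124.6 RPKM. Monocyte sums of cluster Tg (25.7 to 42.2 RPKM) lie above those of WT (up to 21.2 RPKM). B cell sums of cluster Tg (20.5 to 41.7 RPKM) also lie above those of WT (up to 7.19 RPKM).

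Other lymphocyte lists were called in part. Beside their counts, 5.63% of all tested genes were called higher and 2.85% lower in cluster Tg, 5.77% higher and 3.18% lower in miR-27 Tg, and 2.32% higher and 1.26% lower in miR-24 Tg. Of 5 CD8 T cell markers limma called 3 higher and 1 lower both in cluster Tg and miR-27 Tg, and 2 higher in miR-24 Tg. The lower call in cluster Tg, Ctsw (limma adjusted p = 0.0497), was lost in 6 of 6 fits that left out a library, and that of Nkg7 in miR-24 Tg in 3 of 6. Of 6 NK and innate-like markers 2 passed the filter and both (Klrd1 and Klrk1) were called higher in miR-24 Tg and neither in the other genotypes; the difference between genotypes was not tested. Of 6 gamma-delta T cell markers 3 were in the table and 2 passed the filter. Limma called 1 higher in cluster Tg and both in miR-27 Tg, of which Blk also belongs to the B cell list and 5830411N06Rik was lost in 5 of 6 fits that left out a library. That in cluster Tg was 5830411N06Rik, a scavenger receptor gene of gamma-delta T cells, at 35.6, 4.61 and 3.23 RPKM in cluster Tg and between 0.112 and 0.243 RPKM in WT. It was highest in cluster Tg replicate 1, the cluster Tg library with the highest pair. Of 7 regulatory T cell markers 6 passed the filter, and limma called 2 higher in cluster Tg, 1 higher in miR-27 Tg, and 3 higher and 1 lower in miR-24 Tg. In miR-24 Tg, leaving out a library lost the Foxp3 and Il2ra calls in 3 of 6 fits each and that of Gpr83 in 5 of 6. None of these lists had a member called in miR-23 Tg or DKO.

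Over the whole series, 10103 to 10615 genes reached 1 RPKM in a library. On the first principal component, with 24.8% of the variance, the third miR-27 Tg library scored 122.5 and the third DKO library 51.3, against -20.8 to -0.317 for the rest. Without both, the pair in miR-24 Tg against WT was called for both genes (limma adjusted p = 0.0117 for Tmem176a and 0.00399 for Tmem176b). The MS4A counts called higher were then 4 in cluster Tg, 6 in miR-27 Tg, 2 in miR-24 Tg and 1 in miR-23 Tg. In miR-24 Tg 1 member was called lower. Of all 11099 tested genes this fit called 3225 in cluster Tg, 2218 in miR-27 Tg, 1937 in miR-24 Tg and 432 in miR-23 Tg. Relative depth, estimated from the steps of low values and set to 1 in WT replicate 1, was lowest at 0.634 in the miR-27 Tg library that stood apart, and highest at 1.47 in a cluster Tg library. No read counts were used, so no counting interval is given.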

How the data were processed

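The pair and the gene lists were chosen with earlier results of these data known. RNA of FACS-sorted cells was extracted with a miRNeasy kit, made into Illumina TruSeq libraries and sequenced on an Illumina HiSeq, per the labels' protocols. The deposited RPKM values were made by the authors; the submitters' processing notes name STAR 2.2.0c, HOMER and build mm9, with no role for each. Neither gene models nor strand use are stated there. Of miR-23 Tg, 2 of 3 columns carry the same name and are used without a replicate number. A value of 0 is described as listed at 0, since the table also holds values far below what 1 read could give. RPKM values were tested on log2(RPKM + 1) for the genes that reached 1 RPKM in 3 or more of the 18 libraries, with limma 3.58.1 in R 4.3.3 (1 term for 6 genotypes, variance trend, two-sided) at an adjusted p under 0.05. Absolute depth is unknown. In data simulated for miR-24 Tg against WT over 11099 genes, 58% of 100 genes changed by 1 and 89% of 100 changed by 2 on the log2 scale were recovered, with 12 false calls. Besides the pair, genes were named by likeness (the first 10), by position (6 protein-coding genes on each side) and by list. Sequences come from RefSeq on GRCm38.p6 and gene order from GENCODE M21, neither of which is the authors' build, so no coordinate was joined to the table. Alternatives were the pseudocount, the filter, the scaling, the libraries fitted, the replicate number as a block and leaving out libraries. The fit without both libraries that stood apart was chosen after seeing the data. Some single genes are not reported.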

Additional observations from a re-analysis of the deposited data

How the results depend on the processing

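Directions of the pair against WT in cluster Tg, miR-27 Tg and miR-24 Tg held under all alternatives. Replicate numbers did not pair the libraries (correlation of same-numbered deviations -0.111 to 0.201). With the number as a replicate block, Tmem176b in miR-24 Tg against WT was at 1.45 (limma adjusted p = 0.0933); miR-23 Tg shares 1 number with WT and got no block. Without the filter it was at 1.45 (limma adjusted p = 0.0566), and leaving out a library gave 1.24 to 1.67. Tmem176a there was 1.50 at a pseudocount of 0.1, 1.36 at 0.5 and 1.21 without both libraries that stood apart (limma adjusted p = 0.0286, 0.0396 and 0.0117). At 0.1 it was 4.24 for cluster Tg against WT, 4.13 for miR-27 Tg against WT and 4.44 in cluster Tg against DKO. In miR-27 Tg against cluster Tg, Tmem176b was -0.10 under quantile normalisation and -0.32 without both libraries. Leaving out a library gave -0.45 to 0.22 for Tmem176a and -0.32 to 0.44 for Tmem176b there, and for Tmem176b -0.41 to 0.0204 in miR-23 Tg and -0.079 to 0.36 in DKO against WT. The log2 ratio of the genes on RPKM + 1 was 0.65 in miR-23 Tg and 0.84 in DKO. Of the 10 most alike genes 3 stayed by Spearman's rho, 4 without both libraries, and 6 to 10 when a library was left out. Genes called in miR-24 Tg, miR-23 Tg, DKO, cluster Tg and miR-27 Tg against WT and in miR-27 Tg against cluster Tg were 398, 5, 0, 941, 993 and 421. From the 2 genotypes alone they were 851, 14, 4, 2302, 43 and 5, and without both libraries 1937, 432, 2, 3225, 2218 and 1263. Leaving out a library gave 180 to 303, 1 each time, 0 each time, 419 to 710, 533 to 1223 and 103 to 804, and quantile normalisation gave 2 in miR-23 Tg. The cause was not tested. Of 960 alternatives of 64 list and neighbour calls, 747 kept the call and 213 lost it, with 0 turned in direction.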
